A study of Mus musculus with 4 samples.

Results

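A set of 10 genes that mark fat cells was followed among the 24421 genes counted in J558 allografts. The genes were chosen by symbol (Adipoq, Lep, Cfd, Fabp4, Lpl, Plin1, Plin4, Cidec, Pparg and Cd36), and all 10 were present in the table of every library. Fat cell genes were already known to be high in 1 of these libraries when the set was drawn up, so their levels are given as a description, and no p-value is given for them. RNA had been sequenced from 4 tumours of J558, a BALB/c plasmacytoma line labelled as a B lymphocyte, that were grown under the skin of the right flank of female BALB/c mice, hosts with an intact immune system, and 4 weeks of age is given for the study's mice in general. In the vehicle group (Vehicle-1 and Vehicle-2), the mice were dosed with 0.5% methylcellulose. The TAK-931 group (TAK-931-1 and TAK-931-2) received daily oral TAK-931, 60 mg/kg each time, over 6 days, and all tumours are labelled day 6. TAK-931 inhibits CDC7, a kinase needed to start DNA replication. Per the study's legends, Vehicle-1 and TAK-931-1 were single allografts picked as representative, whereas the origin of the libraries numbered 2 is not given in the sources used here, and the labels name no batch.

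Fat cells store triglyceride in a large lipid droplet and secrete hormones, the adipokines. Their identity is set by PPAR gamma, a nuclear receptor that pairs with a retinoid X receptor and acts together with C/EBP factors to switch on genes of fatty acid uptake and droplet formation. Of the genes followed, Adipoq, Lep, Plin1 and Plin4 are largely restricted to fat cells and a few related tissues, whereas Pparg, Lpl, Fabp4 and Cd36 are also used by macrophages, capillary endothelium or muscle.

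Total counts were between 16487902 and 19589339 per library. Levels are given in CPM, a unit that scales counts to a common library size. A count of 0 allowed up to 3 counts, between 0.153 and 0.182 CPM when scaled by these totals alone. The CPM values of genes given below were also adjusted between libraries by TMM, so this range is not on exactly their scale. The TAK-931 libraries differed from each other more than the vehicle libraries did, with a biological coefficient of variation of 0.571 against 0.132. All 8 plasma cell markers, which include Jchain, Mzb1 and the tumour antigen gene Trap1a, were present in every library at a summed level between 4797 and 13635 CPM, and all 8 lay below both vehicle libraries in TAK-931-1, as did 47.4% of all 13669 tested genes. The label of fat cell genes was met in part only: Adipoq had 4, 4, 50 and 2 counts in Vehicle-1, Vehicle-2, TAK-931-1 and TAK-931-2, and Lep had 0, 0, 4 and 0. In bulk tumour, fewer cells of a type and less RNA per cell cannot be told apart.

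The sequences before the start sites are shown for genes with each of the 3 patterns between libraries that are described after them. Of the 10 genes, 8 (all but Fabp4 and Lpl) had RefSeq promoter windows on GRCm38.p6, 11 windows in all. Each was searched on both strands over the 250 bases before the start, for exact matches only. The site bound by PPAR gamma with its partner is 2 copies of AGGTCA with 1 base between them. An exact copy was in 0 of the 11 windows and in 0.0335% of all 32851 windows. It is too rare for 11 windows to show whether these genes have such sites. A single AGGTCA, which the repeat contains, was in 3 windows, those of Cd36 and of 2 starts of Pparg, against 14% of all windows. The C/EBP site TTGCNNAA was in 4 windows, belonging to Lep, Plin1, Cidec and Pparg, against 9.56% of all. A TATAAA box was in 1 window, of Pparg, against 12.4%. The 6 windows below contain no annotated exon and are written 5′ to 3′ on the strand of the gene, with matches to these motifs in capitals. Adipoq, Cfd and Cd36 were high in TAK-931-1 and low in TAK-931-2, Pparg (its start farthest downstream) was higher in both, and Cidec (both of its starts, the upstream one first) was lower in both.

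Adipoq, chr16:23146286-23146535, strand +: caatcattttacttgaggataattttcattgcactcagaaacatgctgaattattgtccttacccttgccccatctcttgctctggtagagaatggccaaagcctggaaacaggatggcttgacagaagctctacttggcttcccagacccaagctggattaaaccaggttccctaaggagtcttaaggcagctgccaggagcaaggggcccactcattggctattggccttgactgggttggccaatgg
Cfd, chr10:79890603-79890852, strand +: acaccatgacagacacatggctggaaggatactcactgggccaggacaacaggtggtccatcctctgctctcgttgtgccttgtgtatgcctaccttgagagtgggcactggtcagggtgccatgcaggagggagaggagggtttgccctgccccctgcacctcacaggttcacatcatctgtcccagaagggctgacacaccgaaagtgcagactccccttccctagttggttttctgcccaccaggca
Cd36, chr5:17835897-17836146, strand -: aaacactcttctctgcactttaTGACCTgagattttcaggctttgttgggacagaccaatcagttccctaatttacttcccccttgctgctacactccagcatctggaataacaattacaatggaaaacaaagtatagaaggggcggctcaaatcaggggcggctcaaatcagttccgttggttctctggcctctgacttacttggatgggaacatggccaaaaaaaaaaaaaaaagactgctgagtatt
Pparg, chr6:115421816-115422065, strand +: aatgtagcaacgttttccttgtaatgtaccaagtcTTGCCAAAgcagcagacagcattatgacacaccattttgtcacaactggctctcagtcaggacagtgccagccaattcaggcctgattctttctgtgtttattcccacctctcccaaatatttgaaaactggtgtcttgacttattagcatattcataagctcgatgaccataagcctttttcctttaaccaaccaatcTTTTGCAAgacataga
Cidec, chr6:113435761-113436010, strand -: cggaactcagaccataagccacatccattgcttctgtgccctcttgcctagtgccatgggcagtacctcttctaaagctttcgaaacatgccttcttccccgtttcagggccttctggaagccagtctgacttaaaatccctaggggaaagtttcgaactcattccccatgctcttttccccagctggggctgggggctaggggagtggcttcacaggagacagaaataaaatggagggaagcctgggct
Cidec, chr6:113434765-113435014, strand -: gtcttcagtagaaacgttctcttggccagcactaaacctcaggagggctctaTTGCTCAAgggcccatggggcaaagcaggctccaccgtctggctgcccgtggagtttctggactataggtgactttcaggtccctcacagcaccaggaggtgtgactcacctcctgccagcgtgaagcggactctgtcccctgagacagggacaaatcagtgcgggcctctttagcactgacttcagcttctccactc

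The windows shown for Pparg and for the downstream start of Cidec held TTGCNNAA, and those of Adipoq, Cfd and the upstream start of Cidec held no match. For Cd36 the bases after the start matched no annotated transcript, so the direction of its window rests on the promoter table alone.

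TAK-931-1 had the highest level of 9 of the 10 genes, among them Lep with only 4 counts there. It had the highest level of 6 of the 7 tested genes, where 41.2% of all 13669 tested genes were highest in it. TAK-931-1 was above both vehicle libraries for those 9 genes (46.1% of all genes) and below both for Cidec (47.4%), and TAK-931-2 was above both for 2 genes (42.3%) and below both for 6 (44.4%). In all, 5 genes were above both vehicle libraries in TAK-931-1 and below both in TAK-931-2 (Adipoq, Cfd, Fabp4, Plin4 and Cd36), 2 were above both vehicle libraries in each TAK-931 library (Lpl and Pparg), and Cidec was below them in each. Among the 7 genes with enough counts to be tested, 4 had the first of these patterns, and 9.36% of all genes had it. The second was seen in 2 of the 7 and in 30.0% of all genes, and the third in 1 of the 7 and in 32.7% of all genes. Because the genes were chosen with these levels known, nothing is read from the shares.

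**Figure D1:**
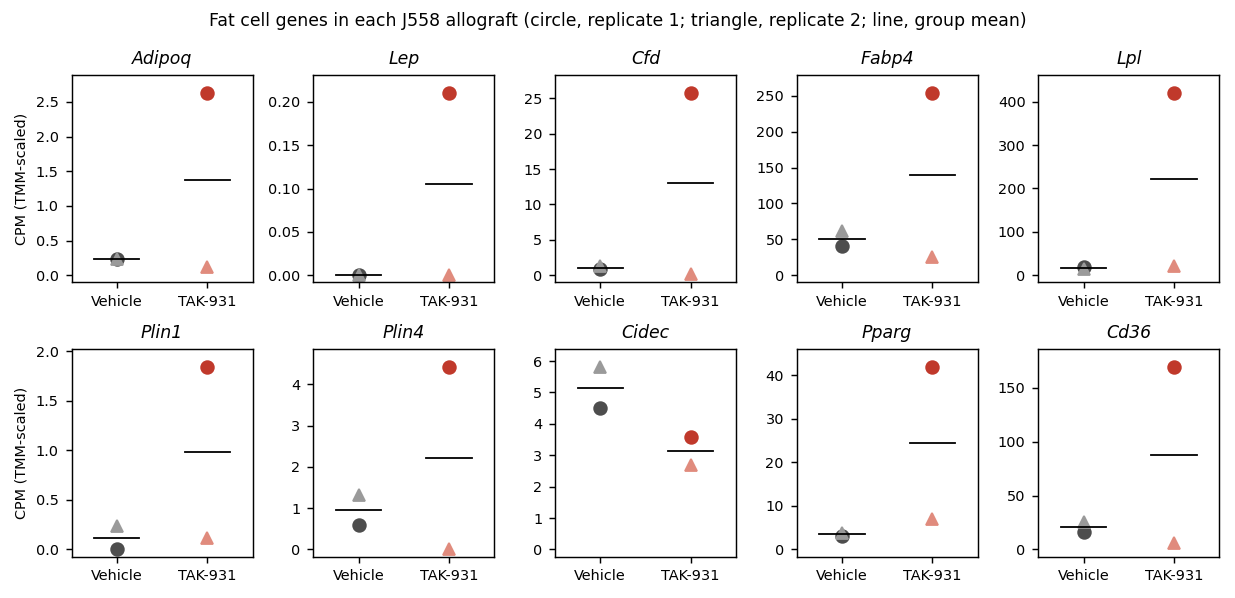
CPM (counts scaled to a common library size by TMM, linear axis) of each fat cell gene, with 1 panel per gene, circles for replicate 1, triangles for replicate 2 and lines for group means. In 9 panels the TAK-931-1 point is the highest, and the TAK-931 mean lies far from both of its points; for Cidec the highest point is Vehicle-2.

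Adipoq and Lep were nearly absent outside TAK-931-1. Adipoq (chromosome 16, 23146536 to 23157968, mm10), which encodes adiponectin, a hormone that raises insulin sensitivity, had 0.237, 0.240, 2.63 and 0.117 CPM in Vehicle-1, Vehicle-2, TAK-931-1 and TAK-931-2. The 50 counts in TAK-931-1 were 11.0-fold the pooled vehicle level, with an exact 95% interval from counting of 5.20 to 27.0, and the 2 counts in TAK-931-2 were 0.489-fold, with an interval of 0.0506 to 2.45 that includes no difference. Counting both mates of a read pair, as these tables appear to do, makes such intervals too narrow: on halved counts the first became 3.81 to 43.7. Lep (chromosome 6, 29060221 to 29073876) encodes leptin, which reports fat stores to the brain. Its 4 counts in TAK-931-1 may be 2 read pairs and lie close to the 3 counts that 0 allows, so no fold is given.

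Cfd (chromosome 10, 79890853 to 79892660), which encodes adipsin, the complement factor D made by fat cells, had more reads than Adipoq or Lep. It had 14 and 21 counts (0.829 and 1.26 CPM) in the vehicle libraries, 490 counts (25.8 CPM) in TAK-931-1 and 4 counts (0.233 CPM) in TAK-931-2. The groups overlapped, since the TAK-931 libraries lay on either side of the vehicle pair. TAK-931-1 was 24.7-fold the pooled vehicle level (17.5 to 35.9) and TAK-931-2 was 0.224-fold (0.0578 to 0.626). Between the TAK-931 libraries Cfd differed 111-fold, the widest gap among the genes that had counts in both. The fitted log2 fold change of TAK-931 against vehicle was 3.63 (SE 2.01), and it became −2.13 with TAK-931-1 left out.

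The perilipins were low outside TAK-931-1. Plin1 (chromosome 7, 79721164 to 79732776), whose product perilipin-1 coats the droplet and holds back lipolysis, had 0, 4, 35 and 2 counts in Vehicle-1, Vehicle-2, TAK-931-1 and TAK-931-2. The level in TAK-931-1 was 15.5-fold the pooled vehicle level (5.53 to 59.9), and that in TAK-931-2 was 0.979-fold (0.0885 to 6.83), within the vehicle pair. Plin4 (chromosome 17, 56100591 to 56109802), another perilipin, had 10 and 22 counts in the vehicle libraries, 84 in TAK-931-1 and 0 in TAK-931-2. It was 4.64-fold the pooled vehicle level in TAK-931-1 (3.05 to 7.21) and, if 0 allows 3 counts, at least 5.45-fold lower in TAK-931-2. The exact upper limit of the latter ratio was 0.239-fold, or 0.508-fold on halved counts. Its fitted log2 fold change was 1.21 (SE 1.98), and with TAK-931-1 left out it was −2.45 at the bound of 3 counts. In the tables, 0.243% of its exon bases were shared with Hdgfrp2 on the other strand, and the remaining 9 genes shared none with another gene.

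Cidec, whose product fuses droplets into a large one, behaved unlike the others. Cidec (chromosome 6, 113424634 to 113435760) had 4.50, 5.81, 3.58 and 2.68 CPM in Vehicle-1, Vehicle-2, TAK-931-1 and TAK-931-2, from 76, 97, 68 and 46 counts. Both TAK-931 libraries were lower than both vehicle libraries, at 0.694-fold and 0.520-fold the vehicle mean, and on halved counts the interval for TAK-931-1, 0.453 to 1.04, included no difference. The fitted log2 fold change was −0.72 (SE 0.53). By level per length, Cidec came before Adipoq in all libraries but TAK-931-1.

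The genes of fatty acid capture carried most of the reads. Lpl (chromosome 8, 68880555 to 68906932), the lipase that frees fatty acids from circulating lipoproteins, had 18.7 and 13.8 CPM in the vehicle libraries, and 421 CPM in TAK-931-1 against 21.6 CPM in TAK-931-2. TAK-931-1 was 25.9-fold the vehicle mean, and TAK-931-2 was 1.33-fold. Although the groups did not overlap, TAK-931-2 was nearer to either vehicle library than to TAK-931-1. Its fitted log2 fold change was 3.77 (SE 1.45), or 0.41 when TAK-931-1 was left out.

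Cd36 (chromosome 5, 17781690 to 17888959), which encodes a fatty acid and scavenger receptor, had 16.6 and 25.8 CPM in the vehicle libraries, and 169 CPM in TAK-931-1 against 5.83 CPM in TAK-931-2. Against the pooled vehicle level it was 8.01-fold in TAK-931-1 but 0.276-fold in TAK-931-2, and the vehicle libraries themselves differed 1.55-fold (1.33 to 1.81). Fabp4 (chromosome 3, 10204343 to 10208576), a carrier of fatty acids inside the cell, had 40.3 and 61.4 CPM in the vehicle libraries, and 254 CPM in TAK-931-1 against 25.7 CPM in TAK-931-2. The TAK-931 levels were 5.00-fold and 0.506-fold that of the vehicle group. For both genes the TAK-931 libraries lay on opposite sides of the vehicle pair. The fitted log2 fold change was 2.05 (SE 1.49) for Cd36 and 1.46 (SE 1.09) for Fabp4, and without TAK-931-1 these became −1.86 and −0.99.

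Pparg (chromosome 6, 115360951 to 115490401), the nuclear receptor that directs fat cell formation, was higher in both treated tumours. It had 3.08 and 3.83 CPM in the vehicle libraries, and 41.8 CPM in TAK-931-1 against 6.88 CPM in TAK-931-2, from 52, 64, 795 and 118 counts. TAK-931-1 was 12.1-fold and TAK-931-2 1.99-fold the vehicle mean. The fitted log2 fold change was 2.82 (SE 0.97), or 0.99 when TAK-931-1 was left out.

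**Figure D2:**
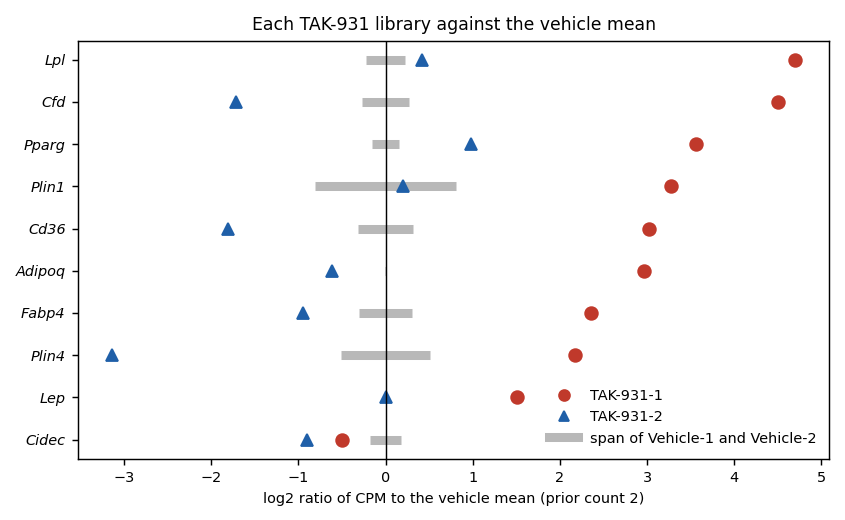
Log2 ratio of CPM (prior count of 2) to the vehicle mean for TAK-931-1 (red circles) and TAK-931-2 (blue triangles), with the span of the vehicle libraries in grey, 1 gene per row. Over the 10 genes the median is 2.99 for the red circles but −0.76 for the blue triangles, and the values of genes with 0 counts depend on the prior count.

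Across the 10 genes, the median of the log2 ratios to vehicle was 2.99 for TAK-931-1 but −0.76 for TAK-931-2, where the medians over all tested genes were −0.02 and −0.01. No gene in the tables passed an adjusted p of 0.05 in edgeR's quasi-likelihood test of TAK-931 against vehicle (0% of 13669), so none of the genes followed did. At an unadjusted p under 0.05, 11.6% of all genes were higher and 6.55% lower. DESeq2 called 1389 genes. A fitted log2 fold change over 1.5 was reached by 4 of the 7 tested (Cfd, Lpl, Pparg and Cd36), against 16.8% of all genes, and by 0 of them without TAK-931-1. Adipoq, Lep and Plin1 did not pass the filter on low counts, and 6 of the 7 that did had their highest level in TAK-931-1, so the 7 are not read as a sample of the 10. With 2 libraries in each group, an exact two-sided permutation test of a single gene cannot go below a p of 0.333.

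Levels were compared between genes as TPM, which divides counts by the exon length given in the tables and scales every library to the same total. Fabp4 had the highest TPM of the 10 genes in every library, with 112 and 169 TPM in the vehicle libraries, 710 TPM in TAK-931-1 and 78.1 TPM in TAK-931-2. It made up between 66.6% and 85.0% of the summed TPM of the 10 genes. By the mean over libraries Lpl followed, with 8.22, 6.02, 186 and 10.4 TPM in Vehicle-1, Vehicle-2, TAK-931-1 and TAK-931-2. Cd36 came next with 7.51, 11.6, 77.1 and 2.89 TPM. In TAK-931-2, Cd36 was below Pparg (5.77 TPM) and Cidec (3.04 TPM). Lpl and Cd36 changed places between Vehicle-1 and Vehicle-2, so their order was not larger than the spread between replicates. Cfd, Pparg and Cidec had means of 13.6, 10.8 and 4.35 TPM over the 4 libraries, and their order also changed between libraries. Adipoq, at 0.342, 0.344, 3.82 and 0.184 TPM, was far lower than Fabp4, whose TPM was 186-fold that of Adipoq in TAK-931-1 and between 327-fold and 493-fold in the other libraries. Plin1, Plin4 and Lep had the lowest means, which TAK-931-1 dominated, and in Vehicle-2 Plin4 (0.405 TPM) was above Adipoq (0.344 TPM). The order by mean TPM was the same for all 10 genes when Jchain was left out of the scaling.

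**Figure D3:**
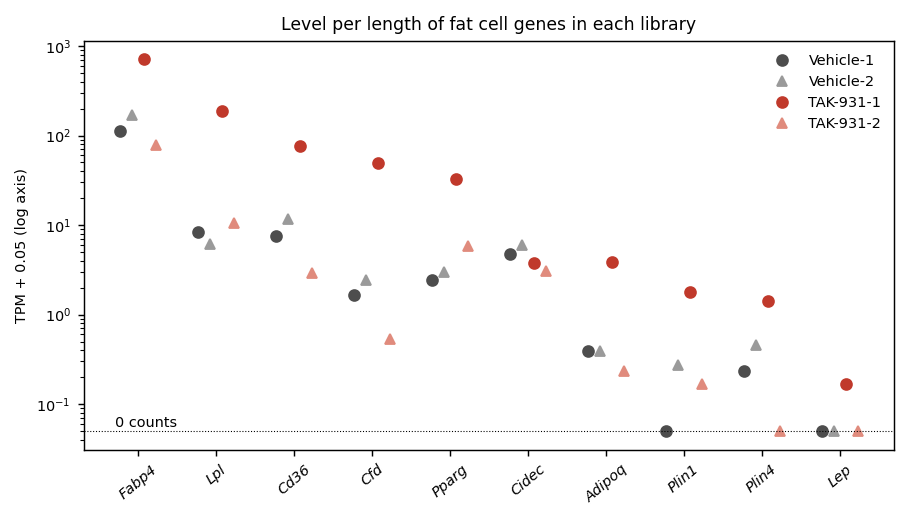
TPM plus 0.05 (log axis) of each fat cell gene in the 4 libraries, ordered by the mean over libraries, with the dotted line marking 0 counts. Fabp4 is highest in every library, and Adipoq, Plin1, Plin4 and Lep lie below 4 TPM in every library. Cidec lies below 4 TPM in TAK-931-1 (3.72) and TAK-931-2 (3.04) only.

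The shift in the 10 genes was set beside markers of other cells that a tumour under the skin can hold. Skeletal muscle markers moved most like the first pattern: 17 of 19 were above both vehicle libraries in TAK-931-1 and below both in TAK-931-2, against 9.36% of all genes. Their summed level was 165 and 161 CPM in the vehicle libraries, and 1239 CPM in TAK-931-1 against 45.1 CPM in TAK-931-2, and Myh7 alone was at 0 in all 4. Acta1, the actin of muscle fibres, had 918, 807, 6531 and 9 counts in Vehicle-1, Vehicle-2, TAK-931-1 and TAK-931-2, and the fibre proteins Tnnt3 and Mylpf had 1593 and 980 counts in TAK-931-1 against 128 and 53 in TAK-931-2. Endothelial markers had the same pattern in 6 of 14 genes, and all 14 were above both vehicle libraries in TAK-931-1, as were 46.1% of all genes. Their summed level was 480.6, 558.2, 1718 and 511.6 CPM in the same order of libraries. The most abundant of them, Plvap, Pecam1 and Egfl7, in TAK-931-1 were 3.35-fold, 2.55-fold and 1.78-fold the vehicle level, against 0.868-fold, 0.848-fold and 0.839-fold in TAK-931-2. Plvap in TAK-931-2 lay within the vehicle pair. Another 5 of the 14 (Vwf, Eng, Kdr, Erg and Cdh5) were above both vehicle libraries in both TAK-931 libraries, as were 30.0% of all genes, between 1.19-fold and 8.02-fold in TAK-931-2. No marker on the endothelial list was at 0.

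Macrophage and fibroblast markers were instead higher in both TAK-931 libraries. Of 14 macrophage markers 12 were above both vehicle libraries in each TAK-931 library, against 30.0% of all genes, and their summed level was 673, 566, 9585 and 1716 CPM in Vehicle-1, Vehicle-2, TAK-931-1 and TAK-931-2. Lyz2, C1qa and C1qb, the most abundant, in TAK-931-1 were 18.4-fold, 14.2-fold and 18.1-fold the vehicle level, against 2.61-fold, 3.06-fold and 3.18-fold in TAK-931-2. Marco had 0 counts in all libraries but Vehicle-2, where it had 2. Of 10 fibroblast markers 9 were above both vehicle libraries in each, with a summed level of 1966, 2257, 15799 and 5345 CPM. Col1a1, Col1a2 and Col3a1, chains of fibrillar collagen, in TAK-931-1 were 8.25-fold, 7.20-fold and 6.21-fold the vehicle level, against 2.92-fold, 2.47-fold and 2.22-fold in TAK-931-2. Among the fat cell genes, Pparg and Lpl had this direction in both libraries. What part muscle, endothelium, macrophages or fibroblasts had in the levels of the 10 genes was not tested.

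**Figure D4:**
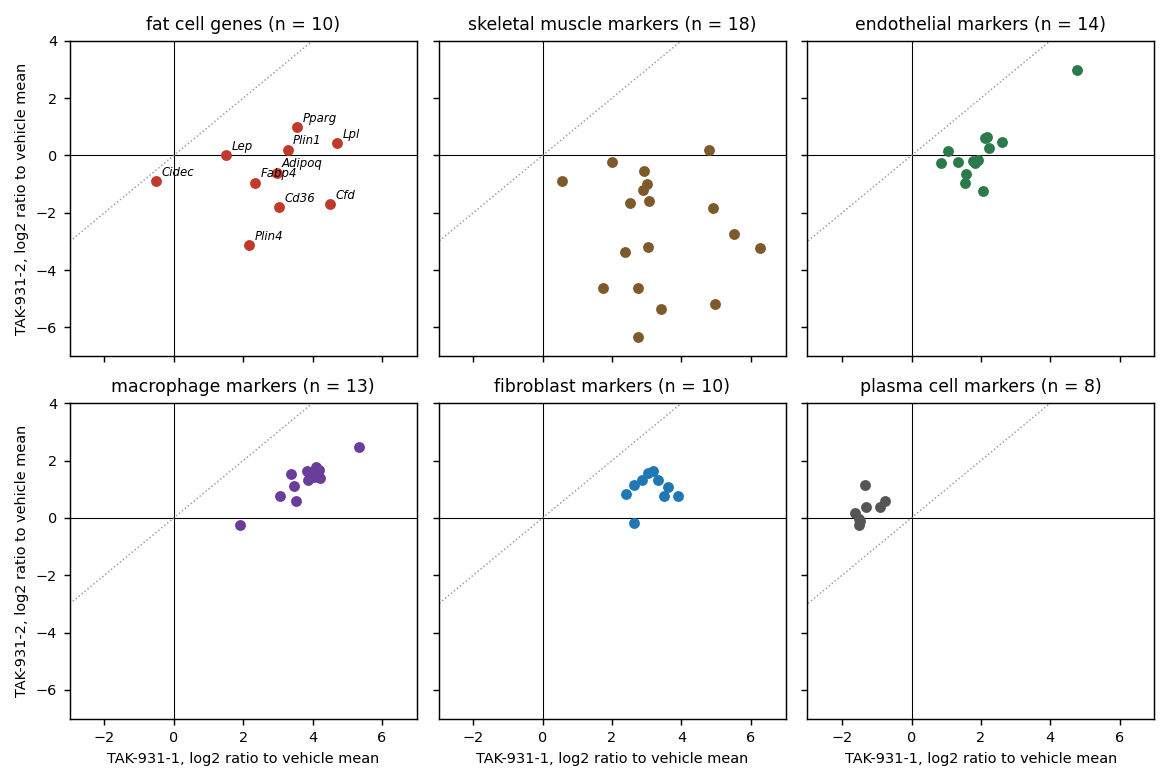
Log2 ratio of CPM to the vehicle mean in TAK-931-1 (x axis) and TAK-931-2 (y axis) for the 10 fat cell genes and for tested markers of 5 cell types, 1 point per gene, with equal change along the dotted line. Skeletal muscle genes lie mostly at the lower right, as do 5 of the 10 fat cell genes, macrophage and fibroblast genes mostly at the upper right, and plasma cell genes left of 0.

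Other genes of fat cell function were taken from 6 lists that hold 90 genes, 87 of them in the tables and 65 tested. None of the 65 passed an adjusted p of 0.05 by edgeR with all 4 libraries and without a replicate block. At an unadjusted p under 0.05, 10 were higher and 2 lower, where 11.6% and 6.55% of all genes were, shares that also stand beside the count of each list that follows. Both TAK-931 libraries were above the vehicle pair for 22 of the 65 and below it for 16, where 30.0% and 32.7% of all genes were. The median log2 ratio over the 65 was 0.77 for TAK-931-1 but −0.03 for TAK-931-2.

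Among other secreted factors, 6 of the 10 genes in the tables were tested and 0 passed, with 2 higher and 0 lower at an unadjusted p under 0.05. Rarres2, which encodes the chemoattractant adipokine chemerin, had 13.1 and 16.8 CPM in the vehicle libraries, and 172 CPM in TAK-931-1 against 34.0 CPM in TAK-931-2, a log2 fold change of 2.78 (SE 0.85). Angptl4, an inhibitor of lipoprotein lipase, had 53.3, 53.2, 129 and 26.0 CPM, so the TAK-931 libraries again lay on opposite sides. Nampt, an enzyme of NAD synthesis that is also secreted, differed little, with a log2 fold change of 0.02 (SE 0.27). Retn, which encodes the adipokine resistin, had 0, 2, 12 and 0 counts.

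In the droplet and lipolysis list, 10 of 15 genes were tested, 0 passed, and none reached an unadjusted p under 0.05. Plin2, the perilipin found in most cells that hold droplets, had 36.5 and 37.2 CPM in the vehicle libraries, and 432 CPM in TAK-931-1 against 35.6 CPM in TAK-931-2. Its level in TAK-931-2 was thus 0.965-fold the vehicle mean while TAK-931-1 was 11.7-fold. Plin3 and Bscl2, which act in droplet coating and droplet formation, were between 0.740-fold and 1.24-fold in either TAK-931 library. Plin5 had 2 counts in TAK-931-2 and 0 elsewhere. The lipases Pnpla2 and Lipe in TAK-931-1 were 1.70-fold and 3.14-fold the vehicle level, against 1.12-fold and 1.25-fold in TAK-931-2. Of the relatives of Cidec, Cideb had 18, 22, 7 and 38 counts in Vehicle-1, Vehicle-2, TAK-931-1 and TAK-931-2, and Cidea had 0, 2, 4 and 0.

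In fatty acid uptake and handling, all 11 genes in the tables were tested and 0 passed, with 3 higher and 0 lower at an unadjusted p under 0.05. Fabp5, the relative of Fabp4 that many cell types use, had 208 and 200 CPM in the vehicle libraries, and 522 CPM in TAK-931-1 against 212 CPM in TAK-931-2. In TPM, Fabp5 exceeded Fabp4 in all 4 libraries, with 979 against 710 TPM in TAK-931-1 and 434 against 78.1 TPM in TAK-931-2. Gpihbp1, which anchors lipoprotein lipase on capillary endothelium, had 9.95, 14.5, 30.9 and 3.91 CPM in Vehicle-1, Vehicle-2, TAK-931-1 and TAK-931-2, on opposite sides of the vehicle pair. Cav1, the main protein of caveolae, stood at 9.23-fold the vehicle level in TAK-931-1 but 2.09-fold in TAK-931-2. Lmf1, needed for the lipase to fold, was 0.466-fold and 0.864-fold.

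Of 18 genes of fatty acid and triglyceride synthesis, 5 were above both vehicle libraries in TAK-931-1 (46.1% of all genes) and 10 below both (47.4%). Of the 18, 15 were tested and 0 passed, with 0 higher and 2 lower at an unadjusted p under 0.05. The median log2 ratio was −0.24 for TAK-931-1 and −0.09 for TAK-931-2. Fasn, the fatty acid synthase, had 337 and 314 CPM in the vehicle libraries, and 133 CPM in TAK-931-1 against 418 CPM in TAK-931-2, the reverse order of Cd36 and Fabp4. Acly and Srebf1, a supplier of acetyl-CoA and a regulator of lipid synthesis, were between 0.844-fold and 0.947-fold the vehicle mean. Scd1, the desaturase that is abundant in fat, had 1.07, 2.40, 22.5 and 2.91 CPM in Vehicle-1, Vehicle-2, TAK-931-1 and TAK-931-2.

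Of the 18 transcriptional regulators, 14 were tested and 0 passed, with 4 higher and 0 lower at an unadjusted p under 0.05. Cebpa, the C/EBP factor that sustains Pparg in fat cells, had 9.84 and 8.74 CPM in the vehicle libraries, and 90.0 CPM in TAK-931-1 against 16.6 CPM in TAK-931-2, a log2 fold change of 2.52 (SE 0.87). Rxra, the partner receptor, stood at 5.45-fold the vehicle level in TAK-931-1 against 0.994-fold in TAK-931-2. Cebpb, an early factor of fat cell formation, was 1.40-fold and 0.609-fold, Id2 was 21.5-fold and 4.49-fold, and Rxrb was 0.601-fold and 0.773-fold in the same order.

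Receptors for the adipokines were present throughout. On the list of receptors and glucose uptake, 9 of 15 genes in the tables were tested and 0 passed, with 1 higher and 0 lower at an unadjusted p under 0.05. Adipor1 and Adipor2, which bind adiponectin, had 222 and 91.3 CPM in Vehicle-1 and were between 0.878-fold and 0.981-fold the vehicle mean in the TAK-931 libraries. The leptin receptor gene Lepr had 18, 34, 76 and 32 counts in Vehicle-1, Vehicle-2, TAK-931-1 and TAK-931-2. Slc2a4, the insulin-responsive glucose transporter of fat and muscle, had 8, 12, 116 and 4 counts. Car3, a carbonic anhydrase abundant in fat and muscle, had 31, 44, 751 and 0 counts, again with the TAK-931 libraries on opposite sides.

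**Figure D5:**
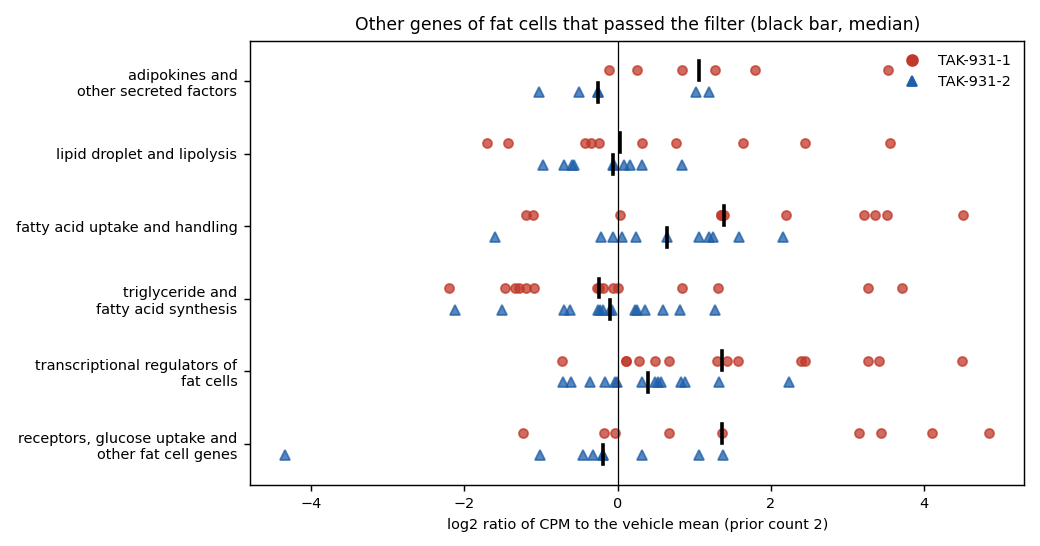
Log2 ratio of CPM to the vehicle mean for tested genes of 6 lists of fat cell function, 1 point per gene, with red circles for TAK-931-1, blue triangles for TAK-931-2 and black bars for medians. The medians in TAK-931-1 run from −0.24 for synthesis to 1.39 for uptake and handling, and those in TAK-931-2 from −0.26 for secreted factors to 0.65 for uptake and handling.

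The genes with the most similar pattern were sought among 13662 other tested genes, by the Euclidean distance between log2 CPM values centred over the 4 libraries. For Pparg these were Emb, Hopx and Fkbp1b, at distances of 0.04, 0.05 and 0.10, and Emb had 92, 112, 1389 and 214 counts in Vehicle-1, Vehicle-2, TAK-931-1 and TAK-931-2. For Cd36 they were Mybpc2, Eef1a2 and Boc, at 0.18, 0.35 and 0.35, and Mybpc2 had 46, 82, 584 and 15 counts. The nearest gene was Ttn for Cfd, Reps2 for Fabp4, Neb for Lpl, Trim63 for Plin4 and Slc25a13 for Cidec. Ttn and Neb are on the list of skeletal muscle markers. Adipoq was too low to be compared. A likeness over 4 libraries is a description of these libraries only.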

How the data were processed

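Read counts per gene were deposited by the authors, 1 table per library, made on mm10 with STAR 2.6.1c and featureCounts according to the submitters' processing notes. The strand setting and the counting of pairs were not given in the sources used here. Small counts were mostly even (between 17.9% and 23.9% odd), so both mates appear to be counted. A column of another kind that was deposited holds exon lengths.

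Genes were filtered with filterByExpr (minimum count of 10), scaled by TMM and tested with the robust quasi-likelihood test of edgeR 4.0.16 (R 4.3.3), two-sided with Benjamini-Hochberg adjustment, treatment being the only term. Alternatives were other scalings, filters, a replicate block, each library left out, halved counts, DESeq2 1.42.0 and limma-voom (limma 3.58.1). The genes followed and all lists were chosen with earlier results of these data known. Named were the 10 genes, the 3 of each list with the highest mean TPM, and 18 set by symbol (some also among those 3). For Pparg and Cd36 the 3 nearest genes by pattern were named. Added after their values were seen were Dlk1, Wap, Trp63, 5 endothelial markers, markers at 0, and the nearest gene of each other tested fat cell gene. The fit was tested on simulated counts. P-values measure only the spread between these samples, which may be technical. Intervals cover counting error only.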

Additional observations from a re-analysis of the deposited data

How the results depend on the processing

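Leaving out TAK-931-1 reversed Cfd (−2.13), Fabp4 (−0.99), Cd36 (−1.86) and Plin4 (−7.02, set against 0 counts; −2.45 at the bound of 3 counts), and the median log2 fold change of the tested fat cell genes went from 2.05 to −0.99. Without TAK-931-2 the 4 genes had 4.596, 2.30, 2.98 and 2.18. Over the 4 fits that each leave out 1 library, that median ran from −0.99 to 3.40, the fat cell genes over a log2 fold change of 1.5 from 0 to 8, all genes over that size from 1325 to 4772, and genes called from 0 to 8424, with 3996 without TAK-931-1 and 8424 without TAK-931-2. A lone library is assumed there to vary like the other group. Over the same fits, list medians that changed sign ran from −0.19 to 1.84 (endothelial), −2.71 to 2.95 (skeletal muscle; −1.96 at the bound for the first), −1.43 to 0.26 (plasma cell), −7.49 to 7.19 (keratinocyte, set against 0 counts; −2.91 to 2.62 at the bound, and 0.71 without TAK-931-2), −0.30 to 1.51 (secreted factors), −0.0626 to 0.518 (droplet) and −0.19 to 2.33 (receptors).

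The replicate block called 144 genes and DESeq2 1389, where 0 were called in the main comparison and by limma-voom. Of the fat cell genes, chosen with these levels known, 0 of 7 tested were called under the block and 2 of 7 by DESeq2. Some were also called when 1 TAK-931 library was left out. Those calls are not read, since they rest on a lone library and on genes whose levels were known. Of the lists, the block called 1 regulator, 1 macrophage and 1 fat precursor gene. Genes of the lists were also called when 1 TAK-931 library was left out, and those calls are not read either. The block turned Plin4 to −0.43 and the droplet median to −0.0185, and limma-voom turned them to −1.25 and −0.0187. The median of the fat cell genes, 2.05, became 0.71 and 0.70 under these, Cfd 1.61 and 1.41, Fabp4 0.71 and 0.70, and Cd36 0.65 and 0.69. Deviations from the group mean in libraries with the same number had a correlation of 0.0041 across genes. Whether these libraries share more than a number was not tested. With no filter 5215 genes exceeded 1.5 against 2502, as did 7 fat cell genes against 4, and limma-voom left 2. The cause of these differences was not tested.

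The settings for ratios of single libraries other than the prior count, and those for the lists of other cell types, were chosen after seeing the data. Scaling by library size turned the droplet medians to −0.00126 in TAK-931-1 and 0.0094 in TAK-931-2. Leaving out either vehicle library gave −0.27 to 4.47 for the keratinocyte median in TAK-931-1 and, in TAK-931-2, −0.62 to 1.01 for Plin1, −0.36 to 0.49 for fat precursors and −0.26 to 0.0531 for endothelium. Depth limits Adipoq, Lep and Plin1, with 4 counts or fewer in every library but TAK-931-1.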

Other observations

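Genes of fat precursor cells and of brown fat were also examined. All 8 precursor markers had their highest CPM in TAK-931-1, as did 41.2% of all tested genes. Their summed level there was 1004 CPM against 95.5 and 64.7 CPM in the vehicle libraries and 161 CPM in TAK-931-2. Most of this came from Ly6a, a surface antigen shared by precursors, endothelium and lymphocytes, with 58.1, 12.9, 793 and 125 CPM in Vehicle-1, Vehicle-2, TAK-931-1 and TAK-931-2. Pdgfra, a receptor of fibroblasts and precursors, had 196, 263, 1614 and 205 counts. Dlk1, which encodes the precursor protein Pref-1, had between 0 and 4 counts in every library. Cd34, another precursor marker, had 351, 489, 1600 and 301 counts. Brown fat genes had few reads: Ucp1, the uncoupling protein that makes heat, had 6 counts in TAK-931-1 and 0 in the other libraries, and the 8 genes summed to between 0.874 and 5.79 CPM. Cox7a1, a respiratory chain subunit also used by muscle, had 22, 10, 36 and 11 counts, Cox8b had 4, 2, 10 and 0, and Elovl3 had 2, 0, 12 and 0.

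Skin and mammary markers were examined as well. Of 11 keratinocyte markers 5 had their highest level in TAK-931-1, where 41.2% of all tested genes did. Krt14, a keratin of the basal epidermis, had 0, 320, 72 and 0 counts in Vehicle-1, Vehicle-2, TAK-931-1 and TAK-931-2, so Vehicle-2 and not TAK-931-1 held most of them. Krt17 had 0, 105, 168 and 0 counts in the same order, so TAK-931-1 held most of these, and Trp63, a regulator of basal epidermis, had 0, 2, 34 and 0. Dsp, which encodes the junction protein desmoplakin, had 871, 784, 388 and 745 counts. The milk protein gene Csn2 had 0 counts in all libraries, and Wap had 2 counts in Vehicle-2 and 0 elsewhere. Epcam, an epithelial adhesion gene, had 3787, 3796, 1876 and 4757 counts, the milk protein gene Csn3 had 308, 419, 297 and 742, and Krt19 had between 2 and 6. Of 9 mammary epithelial markers 0 had their highest level in TAK-931-1.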
